A study of Mus musculus with 10 samples.

Results

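The mouse Hox genes were examined in C2C12 myoblasts transfected with a miR-142-3p mimic or with scrambled RNA. Members were taken by gene name: every probe that was not a control and whose deposited gene name was Hox, a cluster letter from a to d and a number. This gave 45 probes for 39 genes, out of 55681 probes and 34650 gene names on the array. HoxA had 11 genes, HoxB 10, HoxC 9 and HoxD 9. Among them Hoxa3, Hoxa9, Hoxa13 and Hoxd11 had 2 probes each, and probes were read one by one.

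C2C12 is an established mouse myoblast line that divides in rich medium and forms myotubes when it differentiates. Cells of the mimic group received a mirVana miR-142-3p mimic at 150 nM with Lipofectamine 2000, and cells of the scramble group received a scrambled sequence at the same dose. RNA was taken 72 h later and labelled with Cy3 for a 1-colour Agilent array of 60-base probes. The labels give a transfection efficiency of about 60%, so part of each culture may hold no mimic, and they mark every scramble replicate as a re-analysis without saying of what.

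The labels name 6 mimic and 4 scramble replicates, but by the scanner headers these are 10 scans of only 5 array positions on 1 slide, read on 2 days. Over the spots well above background on every scan, scans of 1 position correlated at r = 0.989 to 0.992. Scans of different positions gave r of 0.895 to 0.990, so these ranges overlapped. Scans of 1 position shared 57 to 106 spots marked as defective, against 6 to 24 for scans of different positions. The scans of a position were therefore averaged, giving 3 mimic and 2 scramble arrays. Mimic array 1 is replicates 1 and 4, mimic array 2 is replicates 2 and 5, and mimic array 3 is replicates 3 and 6. Scramble array 1 is replicates 1 and 3, and scramble array 2 is replicates 2 and 4. P-values measure the spread among these 5 arrays, which may be partly technical, and 2 scramble arrays limit the precision of every difference. Between 25.4% and 34.6% of spots were well above background on a scan, and at most 1 spot was saturated. Scramble array 2 had r of 0.915 to 0.924 to the mimic arrays, against 0.946 to 0.951 for scramble array 1. With only 2 scramble arrays, these values do not show which of them is unusual. Mimic array 2 was the least sensitive: the lowest log2 signal marked well above background, averaged over an array's 2 scans, was −0.72 on it, against −1.86 to −1.12 on the others.

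Hox genes encode homeodomain transcription factors that give cells along the body axis their position. They lie in 4 clusters, and genes of the same place in different clusters form a paralog group: groups with low numbers act towards the head and groups with high numbers towards the tail and the ends of the limbs. Adult cells, including muscle progenitors, keep part of the Hox code of their place of origin. Polycomb and trithorax proteins keep the clusters silent or active, retinoic acid activates them in the embryo, and Pbx, Meis and Pknox proteins bind DNA together with Hox proteins.

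The added RNA and the probes are shown first, since the probes decide which Hox genes can be told apart. RefSeq lists the mature strand as mmu-miR-142a-3p (assembly GRCm38.p6), here with its seed, bases 2 to 8, in capitals.
mmu-miR-142a-3p: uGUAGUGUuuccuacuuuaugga
The complement of this seed, ACACTAC, occurred in 0 of the 45 Hox probes and in 144 of all 55681 probes (0.259%), searched on the probe strand. A probe covers 60 bases of its transcript, so this says nothing about the rest of a transcript. The longest run of bases shared by probes of different Hox genes was 11 bases. The probes of Hoxc11, Hoxc12 and Hoxd10 are shown because they lie in a stretch that related genes share. Hoxc12 and Hoxd10 each code for 5 or more residues in a row in common with Hoxc11, at the helix of the homeodomain that reads DNA, the most conserved part of the family. The bases that span these residues are in capitals.
Hoxc11 A_55_P2028399: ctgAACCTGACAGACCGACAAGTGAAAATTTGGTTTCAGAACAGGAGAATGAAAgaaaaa
Hoxc12 A_55_P2169099: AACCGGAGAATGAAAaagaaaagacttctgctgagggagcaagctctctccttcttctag
Hoxd10 A_52_P407049: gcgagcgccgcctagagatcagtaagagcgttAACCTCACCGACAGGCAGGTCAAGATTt
The Hoxd10 and Hoxc11 probes had 9 such residues in common, with 20 of the 27 bases that code for them identical, and the Hoxc12 and Hoxc11 probes had 5, with 14 of 15 bases identical. Of these 3 probes, Hoxc11 alone was well above background on 4 or more scans: Hoxc12 was so on 1 scan and Hoxd10 on 0. A part of related transcripts in the Hoxc11 signal was not tested.

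The HoxA and HoxC clusters were read in these cells, HoxB in part, and HoxD hardly at all. A probe was counted as detected if 4 or more of the 10 scans marked it as well above background. By this rule 16 of 45 Hox probes (35.6%) and 15 of 39 genes were detected, against 31.3% of all probes on the array. HoxC had 6 of 9 genes detected, HoxA 6 of 11, HoxB 3 of 10 and HoxD 0 of 9. Counted by single readings, 57 of 90 HoxC readings (63.3%), 64 of 150 HoxA readings (42.7%) and 27 of 110 HoxB readings (24.5%) were well above background, but only 1 of 100 HoxD readings. That 1 reading was Hoxd11 on scramble replicate 3.

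**Figure D1:**
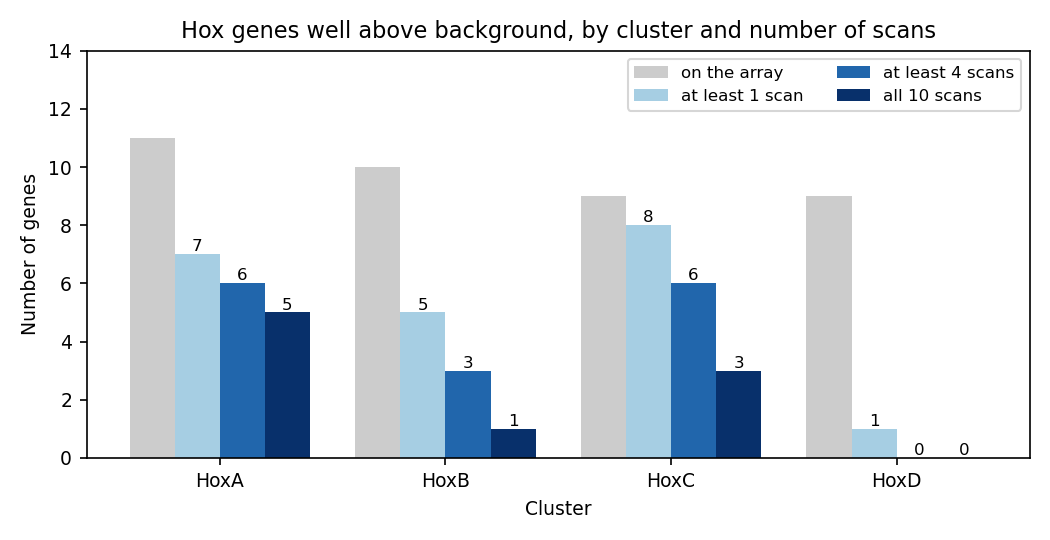
Number of genes per cluster (vertical axis) whose best probe was well above background on at least 1, at least 4 or all 10 scans (bars), beside the number on the array (grey). On at least 4 scans HoxA and HoxC have 6 genes each, HoxB has 3 and HoxD has 0.

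Detected genes were spread along the clusters rather than lying at one end. In HoxA they included Hoxa3, Hoxa7, Hoxa9, Hoxa10 and Hoxa11. In HoxB they were Hoxb6, Hoxb9 and Hoxb13, and in HoxC they were Hoxc4, Hoxc6, Hoxc9, Hoxc10, Hoxc11 and Hoxc13. Paralog group 9 was detected in 3 clusters, and groups 6, 10, 11 and 13 in 2 each. Hoxa3, Hoxa7, Hoxa9, Hoxa10, Hoxa11, Hoxb13, Hoxc4, Hoxc6 and Hoxc10 were well above background on all 10 scans.

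The other 24 genes were not detected. Of these, 18 did not rise well above background on a single scan, among them Hoxa5 and Hoxa13 in HoxA, Hoxb4 and Hoxb8 in HoxB, Hoxc8 in HoxC, and Hoxd8, Hoxd9, Hoxd10, Hoxd12 and Hoxd13 in HoxD. The remaining genes reached 1 or 2 scans. Hoxa4 did so on 1 mimic and 1 scramble scan, Hoxc5 and Hoxc12 on 1 mimic scan each, and Hoxb7 and Hoxd11 on 1 scramble scan each. For Hoxa3 1 probe was detected on all 10 scans and the other on 0. Not well above background is a limit of this array and not an absence of RNA, and a weak probe cannot be told apart from a low transcript.

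With the mimic, 1 detected Hox probe changed past the threshold: Hoxc6 was higher. This is 1 of 16 probes (6.25%), all limma tests being adjusted over the 17455 detected probes of the array, of which 1594 passed (9.13%). Over the whole array 5.11% of detected probes rose and 4.02% fell. At an unadjusted p below 0.05 stood 4 of 16 Hox probes (25.0%), against 25.3% of all detected probes. The mimic and scramble arrays did not overlap for 7 of 16 Hox probes (43.75%), against 42.7% of detected probes. The median log2 difference, mimic minus scramble, was 0.14 over the 16 Hox probes and 0.06 over all detected probes. Scaling to the 75th percentile of the probes detected on every scan moved these medians to 0.01 and −0.07. All 3 shares lie near or below the background of the array.

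Values below are normalised log2 signals, the log2 of the processed signal minus the scan's 75th percentile, so 0 is that percentile. A value of one probe cannot be set against that of another. Coordinates are those of the array design on mm9; exons and UTRs were not assigned.

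Hoxc6, a patterning gene of the thorax, rose. Its probe lies at chr15:102842243-102842302. On the mimic scans it read 4.43, 4.73, 4.37, 4.18, 4.59 and 4.29 for replicates 1 to 6. On the scramble scans it read 3.38, 2.39, 3.50 and 2.43 for replicates 1 to 4. Every mimic scan was above every scramble scan, and the scramble arrays differed from each other more than the mimic arrays did. The array means were 4.43 ± 0.20 (SD, n = 3) and 2.93 ± 0.73 (SD, n = 2), a log2 difference of 1.51 ± 0.31 (SE) or 2.84-fold (95% limits 1.72-fold to 4.69-fold; limma adjusted p = 0.024). Leaving out scramble array 2 lowered the difference to 0.99 and ended the call (limma adjusted p = 0.058), and leaving out scramble array 1 raised it to 2.02. Slide row 1 held mimic arrays 1 and 3 and scramble array 1, and row 2 held mimic array 2 and scramble array 2. The difference was 0.88 in row 1 and 2.25 in row 2, and 1.46 with the row as a block (limma adjusted p = 0.055). Each row had 1 scramble array, so a row and its scramble array cannot be told apart.

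Hoxc9, which shapes the thoracic region and its motor neurons, had the next difference in size and did not pass. Its probe lies at chr15:102814735-102814794, next to Hoxc6 in the detected part of the cluster. The mimic arrays read 2.10, 2.44 and 2.28. The scramble arrays read 2.25 and −0.68. Scramble array 1 thus lay among the mimic arrays and scramble array 2 far below them, on both of its scans (−0.28 and −1.07). The fitted log2 difference of 1.49 ± 0.70 (SE, limma adjusted p = 0.23) rests on that array: the mimic mean was 0.03 above scramble array 1 and 2.95 above scramble array 2. The scramble arrays differed 7.59-fold from each other in Hoxc9, and only 0.166% of all detected probes differed as much between them. For Hoxc6 they differed 2.04-fold in the same direction. A difference at least as large, in either direction, was seen for 6.98% of detected probes.

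**Figure D2:**
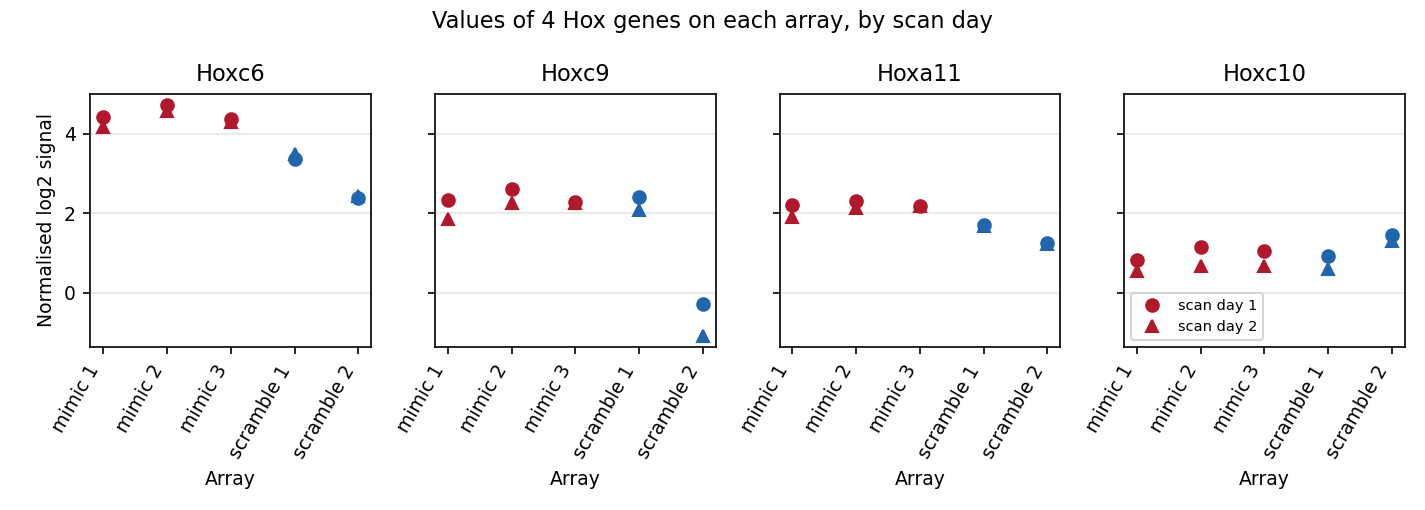
Normalised log2 signal of Hoxc6, Hoxc9, Hoxa11 and Hoxc10 (vertical axis) on each of 5 arrays (horizontal axis), with circles for the first and triangles for the second scan day. For Hoxc6 all mimic scans lie above 4 and all scramble scans below 3.6, while for Hoxc9 scramble array 1 lies at the mimic level and scramble array 2 near −0.68.

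The rest of HoxC did not pass the test. Hoxc4, a gene of the neck and upper thorax, read 0.01, 0.79 and 0.23 on the mimic arrays and 0.36 and 0.22 on the scramble arrays, with overlapping groups and a difference of 0.05 ± 0.26 (SE). Hoxc10, a lumbar and hindlimb gene, read 0.69, 0.92 and 0.86 with the mimic and 0.77 and 1.38 with scramble, a difference of −0.25 ± 0.24 (SE). The sign of both differences turned when scramble array 2 was left out, to −0.02 and 0.06. Hoxc11, expressed in the hindlimb and tail region, read −0.15, −0.92 and 0.39 with the mimic and 1.04 and 0.17 with scramble. Its difference of −0.83 ± 0.41 (SE, limma adjusted p = 0.25) was the lowest of the cluster, with groups that overlapped. Hoxc13, known for hair and nail growth, read −0.81, −0.87 and −0.89 with the mimic and −0.65 and −0.12 with scramble. These groups did not overlap, and the difference was −0.47 ± 0.22 (SE, limma adjusted p = 0.23).

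In HoxA, 6 of 7 detected probes lay above 0 and none passed the test. Hoxa3, a gene of the throat region and the thymus, read 0.48, 0.94 and 0.66 on the mimic arrays and 0.11 and −0.37 on the scramble arrays. All 3 mimic arrays were higher, with a difference of 0.82 ± 0.24 (SE, limma adjusted p = 0.075). Hoxa11, which shapes the forearm and lower leg and is read by 10 spots on this array, read 2.06, 2.24 and 2.19 with the mimic and 1.70 and 1.25 with scramble. The groups did not overlap, and their means differed by 0.69 ± 0.21 (SE, limma adjusted p = 0.091).

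Other HoxA probes showed smaller differences. Hoxa7, a thoracic gene, read 0.83, 1.22 and 1.39 with the mimic and 0.78 and 0.77 with scramble, a difference of 0.37 (limma adjusted p = 0.34). Hoxa9, known from blood progenitors and from the upper limb, was read by 2 probes. A_55_P1979768 gave 1.65, 2.01 and 1.62 against 1.35 and 1.31, a difference of 0.43 ± 0.21 (SE, limma adjusted p = 0.24). A_55_P2066103 gave −0.52, −1.33 and −0.64 against −1.21 and −0.90, a difference of 0.23 ± 0.28 (SE), with overlapping groups and only 2 scramble scans well above background. Both Hoxa9 probes thus had the same sign, and only the first separated the groups. Hoxa10, a gene of the thigh and lumbar region, read 0.04, −0.01 and 0.31 with the mimic and 0.11 and 0.65 with scramble. It was the single HoxA probe below 0, at −0.27 ± 0.23 (SE), and moved to 0.00 without scramble array 2.

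All 3 detected HoxB probes lay below 0, all with overlapping groups, and none passed. Hoxb6, expressed in the trunk and early limb, read −0.65, −1.26 and −1.08 on the mimic arrays and −0.82 and −0.53 on the scramble arrays, a difference of −0.32 ± 0.24 (SE). Hoxb13, the tail-end gene of the cluster, read −0.33, 0.16 and 0.03 against 0.71 and 0.14, a difference of −0.47 ± 0.25 (SE). Hoxb9, a thoracic gene, read −1.18, −0.04 and −1.76 with the mimic and −0.24 and 0.02 with scramble. Mimic array 2 lay at the scramble level and the other mimic arrays below it. The difference was −0.88 ± 0.45 (SE, limma adjusted p = 0.26), and without mimic array 2 it was −1.36 with limma adjusted p = 0.043.

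**Figure D3:**
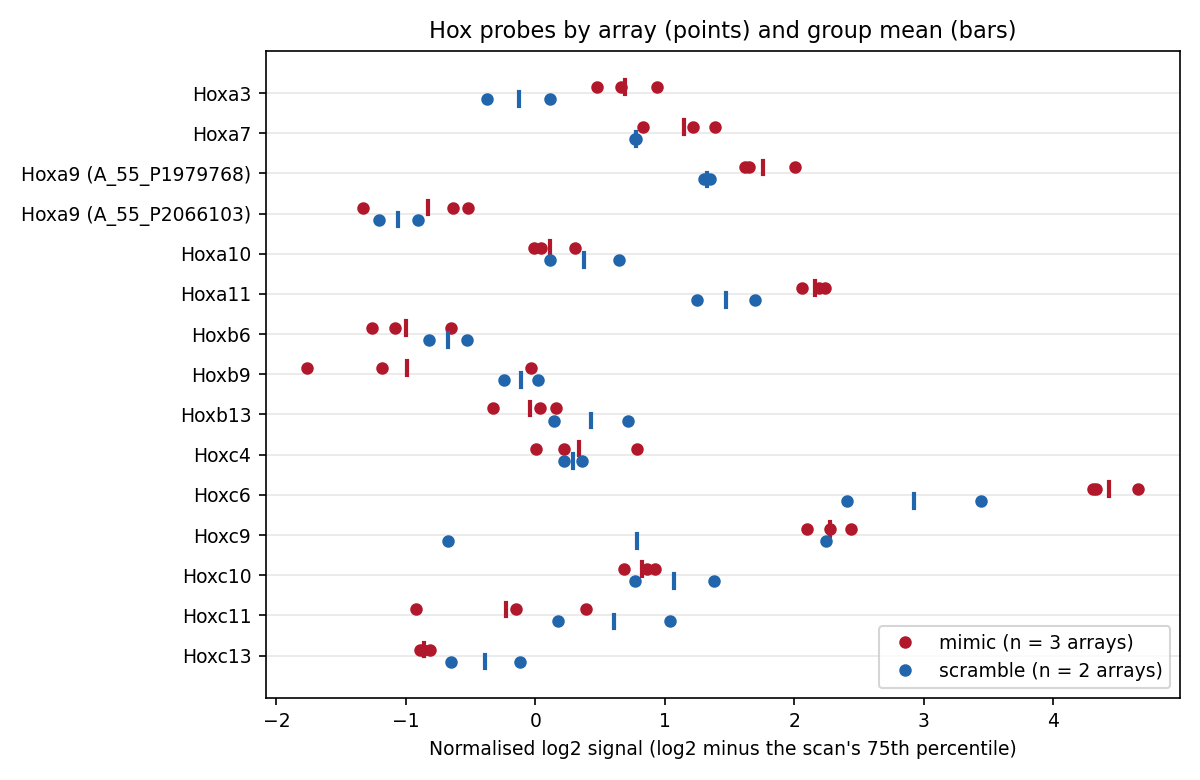
Normalised log2 signal (horizontal axis) of 15 of the 16 detected Hox probes on each mimic array (red points, n = 3) and scramble array (blue points, n = 2), with bars at the group means. Hoxc6 and Hoxa11 show mimic arrays to the right of both scramble arrays, Hoxc9 shows 1 scramble array far to the left, and levels of different probes cannot be compared.

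Set by cluster, the 7 HoxA probes had a median log2 difference of 0.43, the 3 HoxB probes −0.47 and the 6 HoxC probes −0.10. Set by place along the clusters, a split chosen after the values were seen, 8 of 10 probes of paralog groups 1 to 9 lay above 0, with a median of 0.40. Of the 6 probes of groups 10 to 13, 5 lay below 0, with a median of −0.37; Hoxa11 was the exception. Over the whole array 55.6% of detected probes lay above 0. The counts of groups 10 to 13 were the same under each other scaling of the arrays, where Hoxc4 alone changed sign, from 0.05 to −0.08. Without scramble array 2 they became 3 above and 3 below, as Hoxa10 and Hoxc10 moved to 0.00 and 0.06; the medians were then 0.38 for groups 1 to 9, with 7 of 10 above 0, and −0.10 for groups 10 to 13. No test was made of these counts, and 15 of the 16 probes did not pass on their own.

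**Figure D4:**
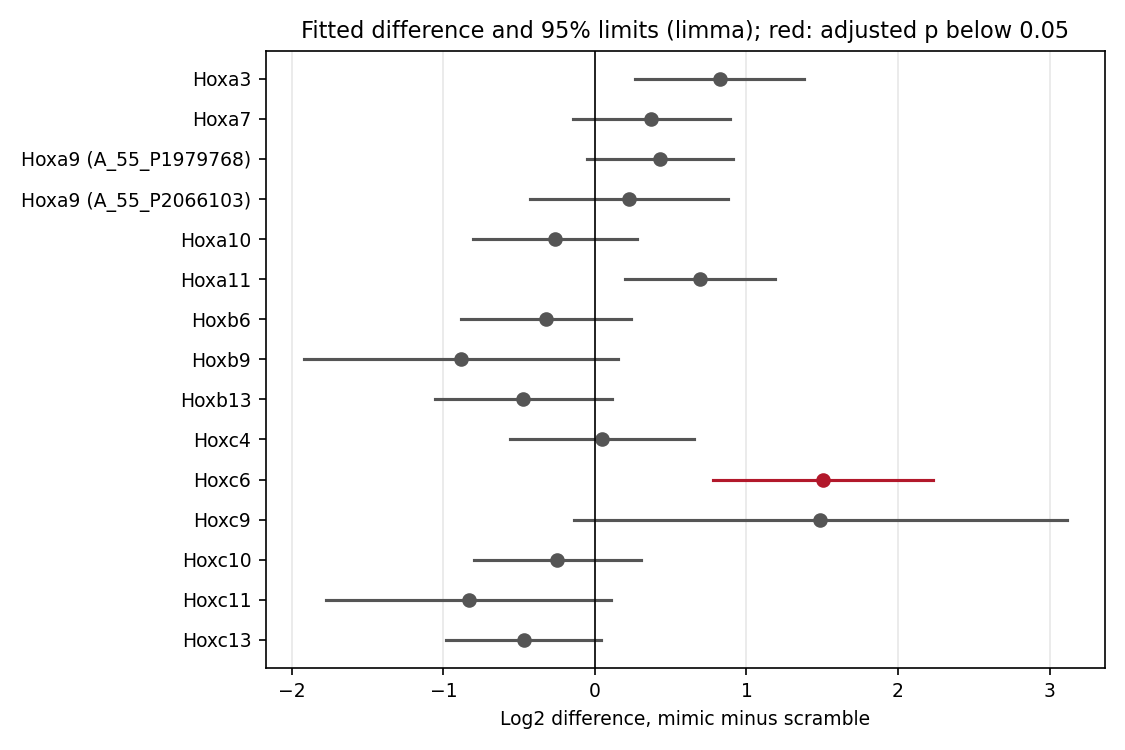
Fitted log2 difference, mimic minus scramble (horizontal axis), with 95% limits from limma for 15 of the 16 detected Hox probes, in order of cluster and paralog group. The limits of Hoxc6, Hoxa3 and Hoxa11 exclude 0, and only Hoxc6 passes after adjustment.

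Noncoding RNAs of the clusters were read by 10 probes, of which 4 were detected. Of these 4 probes 1 was called (25%, against 9.13% of all detected probes). Hoxa11os, the RNA transcribed opposite to Hoxa11, rose by 1.01 ± 0.25 (SE, limma adjusted p = 0.045), from 3.28 ± 0.45 (SD, n = 2) to 4.29 ± 0.18 (SD, n = 3). Its sense partner differed by 0.69 and did not pass. The call of Hoxa11os was lost in 8 of 19 alternatives, among them without scramble array 2, where the difference was 0.69. Hotair, which is transcribed within HoxC, was detected by 3 of 5 probes, at differences of 0.28, 0.71 and 0.74, and none passed. Hottip, Hoxb5os and Hoxd3os1 did not reach this mark on a single scan.

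The Pbx, Meis and Pknox cofactors were listed together with Tgif1. In this list 1 probe rose and 1 fell out of 15 detected probes (13.3%, against 9.13% of all detected probes), with a median difference of 0.12. Meis1 rose from 2.14 ± 0.56 (SD, n = 2) to 3.27 ± 0.15 (SD, n = 3), a difference of 1.13 ± 0.27 (SE, limma adjusted p = 0.039). Without scramble array 2 it was 0.73 and did not pass. Pknox2, a relative of Meis1, fell: it was well above background on all 4 scramble scans and on 0 of 6 mimic scans. It met the 4-scan rule through the scramble scans alone, so its fit rests on mimic values that were not detected. Set against the detection level of the mimic arrays, it was 3.52-fold lower (measured means 0.36 and −1.89, limma adjusted p = 0.00054). This level is each mimic array's lowest signal marked well above background, averaged over its 2 scans. Unmarked spots can read above it, as Hoxb9 did at −0.08 on mimic replicate 2, so 3.52-fold is not a strict minimum. Pknox2 kept its call in all 17 alternatives that gave it a value. Each of them used mimic readings that were not marked well above background. The DNA-binding partners Pbx2 (−0.09) and Pbx3 (0.52 and 0.85) did not pass, and nor did Meis2 (0.41), Meis3 (0.11 and −0.50), Pknox1 (−0.24 and −0.68) or Tgif1 (0.45).

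**Figure D5:**
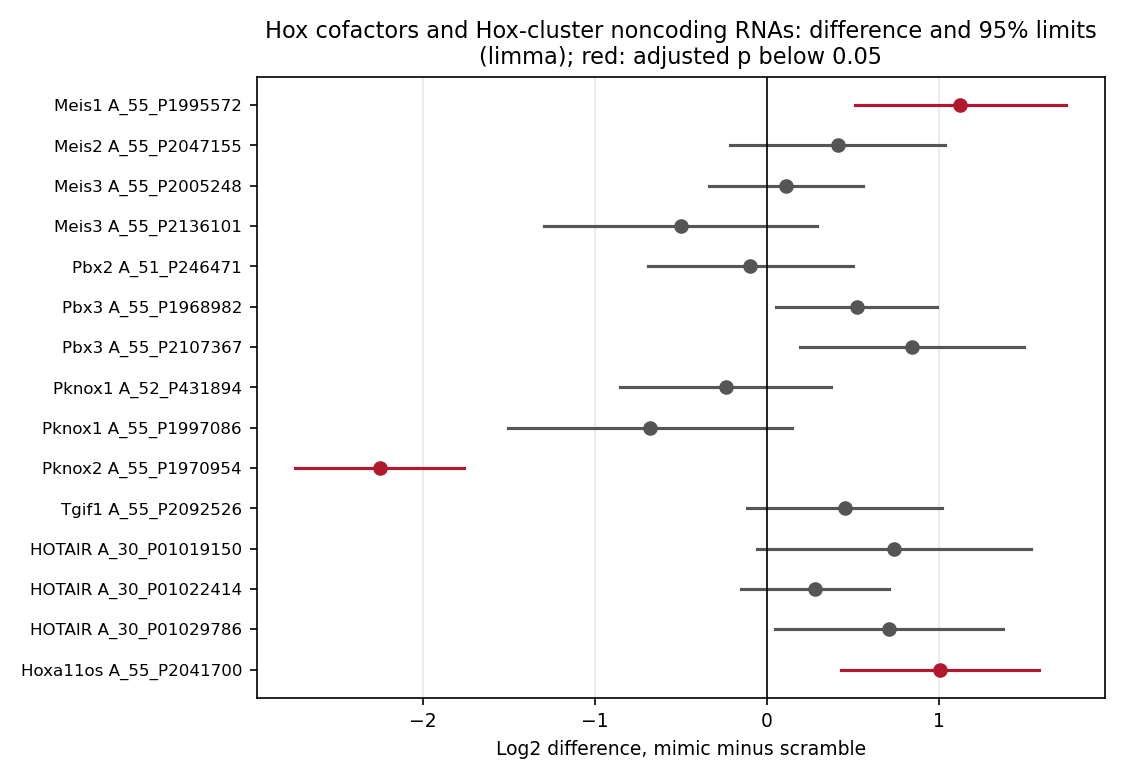
Fitted log2 difference, mimic minus scramble (horizontal axis), with 95% limits from limma. Shown are 11 of the 15 detected probes of Hox cofactors and Tgif1, and the 4 detected probes of noncoding RNAs of the clusters. Meis1 and Hoxa11os pass above 0, at 1.13 and 1.01, and Pknox2 passes below 0.

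Among the chromatin regulators of the clusters, 1 of 21 detected Polycomb probes rose and 1 fell (9.52% called, against 9.13% of all detected probes), with a median difference of 0.11. One probe of Ezh1, a methyltransferase of the repressive mark on histone H3, rose by 1.15 ± 0.26 (SE, limma adjusted p = 0.034), while its other 2 detected probes gave 0.86 and 0.39 and did not pass. The Ezh1 call was lost in 7 of 19 alternatives, among them without each mimic array in turn and without scramble array 2, where the difference was 0.79. Ring1, a ubiquitin ligase of the other Polycomb complex, fell by 1.02 on the log2 scale (limma adjusted p = 0.047), a call lost in 14 of 18 alternatives. Ezh2 (0.59), Eed (0.44), Suz12 (0.15), Rnf2 (0.13) and Bmi1 (−0.49 and −0.56) did not pass. Of 14 detected probes of trithorax proteins and demethylases that remove the repressive mark, 2 fell (14.3%, against 9.13% of all detected probes), with a median of −0.07. Ash1l, a histone methyltransferase that opposes Polycomb, fell by 1.15 on the log2 scale (limma adjusted p = 0.015), a call lost in 6 of 18 alternatives, among them without each mimic array in turn and with normexp background correction, where the difference was −0.63. For Kmt2d, an enhancer methyltransferase, 1 probe fell by 1.34 on the log2 scale (limma adjusted p = 0.027) and the other gave 0.68 and did not pass. The Kmt2d call was lost in 7 of 17 alternatives, among them when scramble array 1, mimic array 2 or mimic array 3 was left out and with normexp, where the difference was −0.30.

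Genes of retinoic acid handling gave 1 higher and 1 lower call among 10 detected probes (20%, against 9.13% of all detected probes), with a median difference of 0.07. Crabp2, which carries retinoic acid to its receptors, rose by 1.46 ± 0.29 (SE, limma adjusted p = 0.019). The call was lost in 4 of 19 alternatives: without a filter, without mimic array 2 or 3, and without scramble array 2, where the difference was 1.12 (limma adjusted p = 0.079). The receptor probes Rara (−0.40 and −0.21), Rarb (−0.10), Rarg (−0.02), Rxrb (0.47) and Rxrg (0.16) did not pass. Of the ParaHox and neighbouring homeobox genes, relatives that include Cdx1, Cdx2 and Pdx1, 0 of 11 probes were detected.

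Muscle markers moved with the groups far more than any Hox probe. All 7 detected probes of terminal differentiation genes were called lower (100%, against 4.02% of all detected probes), with a median of −5.14. Their summed signal, in multiples of the scan's 75th percentile, was 10.3 to 13.04 on mimic arrays and 430.4 to 455.8 on scramble arrays. Of 10 detected myoblast probes 7 were called lower (70%, against 4.02% of all detected probes). Myod1 fell by 3.25 on the log2 scale, and the list's sum was 261.4 to 277.5 against 497.3 to 499.3. For Ncam1, 1 probe gave 0.24 and did not pass, while its others were called at −2.38 and −2.71. Myf5 was well above background on 3 mimic and 0 scramble scans, short of the rule for detection, and Pax7 on 0 scans. The leukocyte list held 4 detected probes, of which 1 was called (25%, against 9.13% of all detected probes): Cd68 rose (4.83). The leukocyte sums were 43.1 to 45.4 with the mimic against 16.7 to 16.8 with scramble. Itgam (0.14) and Csf1r (0.17 and −0.67) were detected and did not pass, and Tyrobp, Ptprc and Lyz2 were well above background on 0 scans. Of 5 detected fibroblast probes 1 was called (20%, against 9.13% of all detected probes): Lum rose (2.51). The fibroblast sums were 288.7 to 316.3 with the mimic against 216.7 to 274.8 with scramble. No epithelial probe was detected, and the limb genes Tbx5, Tbx4 and Pitx1 were undetected on every scan. The part of these markers in the Hox differences was not tested, and in bulk RNA fewer cells with a transcript and less RNA per cell cannot be told apart.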

How the data were processed

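The deposited scanner files hold spot intensities on a linear scale, already corrected for background by Feature Extraction, version 12.0.0.7 per the file headers and 10.7.3.1 per the submitters' processing notes. The deposited series matrix holds intensities normalised by the authors in a way not given in the sources used here, and served as an alternative only. The members, lists and settings were chosen with earlier results of these data known.

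Spots with a non-uniformity or population-outlier mark were dropped (4 of 630 Hox readings), spots of a probe were averaged, and log2 of the processed signal minus the scan's 75th percentile over all non-control spots was used. A probe was kept when at least 0.5 of its spots were well above background on at least 4 of 10 scans. Each kept probe was tested in R 4.3.3 by limma 3.58.1 (lmFit, then eBayes, with 4.85 prior and 3 residual degrees of freedom) on the means of 3 mimic and 2 scramble arrays, with Benjamini-Hochberg adjustment over all 17455 kept probes and a threshold of 0.05. The code was tested on simulated data. The rule was to name every kept Hox probe; a few genes are not reported here, though the counts include them. Accessions of 44 of 45 Hox probes matched the same symbol in RefSeq (GRCm38.p6); 1 Hoxa3 probe carried another kind of accession. Alternatives changed the background step, scaling, filter, unit of analysis, blocks and arrays used.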

Additional observations from a re-analysis of the deposited data

How the results depend on the processing

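Hoxc6 kept its direction in all 19 alternatives (log2 difference 0.99 to 2.02) and its call in 13. The call was lost without a filter (limma adjusted p = 0.14), with a block for the slide row, without each mimic array in turn and without scramble array 2. The main count of Hox calls was 1 and of calls on the whole array 1594. With array median scaling these were 2 and 994, and with the slide row as a block 0 and 1055. Without a filter, where undetected probes were tested as well, they were 0 and 579. With every scan taken as a sample they were 5 and 5266, which counts each array more than once. With the replicate number as a block as well they were 5 and 2876; the labels do not pair the numbers, same-numbered scans had correlated deviations of −0.28 to 0.17, and 0 of 4 scramble scans correlated best with their own number, so no pairing was assumed. When probes had to be well above background on every scan, 2 of 9 Hox probes tested were called. Of the 16 detected Hox probes, 3 were called with scan day and array as blocks, and 2 on the first scan day. Calls on the whole array are not given for these settings, so these counts have no background share beside them. Leaving out 1 array gave 0 to 6 Hox calls and 669 to 4518 on the whole array, the highest without scramble array 1, where the lone scramble array was assumed to vary like the others. The cause of these changes was not tested. Hoxc9 passed with array median scaling (1.55) and without scramble array 1 (2.95). Of 295 values of detected Hox probes over the alternatives 270 stayed on the same side of the threshold, 19 gained a call and 6 lost one; none that was called reversed.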

Other observations

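The scanner's weaker flag, positive and significantly above background, gave a wider Hox code. By it, 27 of 45 Hox probes and 26 of 39 genes were read on at least 4 scans, against 16 probes and 15 genes by the stricter flag. HoxA then had 9 of 11 genes, HoxB 8 of 10 and HoxC 8 of 9, and HoxD still had 1 of 9, which was Hoxd11. Hoxa4, which reached the stricter flag on 2 scans, met the weaker one on all 10, with mean log2 signals of −1.48 in the mimic and −1.39 in the scramble group. Hoxb4, a gene of neck vertebrae and blood stem cells, met the weaker flag on 7 scans and the stricter one on 0.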
